A study of Mus musculus with 12 samples.

Results

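The cytokines described here are 6 factors through which stromal cells support developing T cells and the cells around them: Tslp, Kitl, Csf1, Il7, Il15 and Flt3l. Members were chosen as every probe set of the array whose platform annotation gives 1 gene symbol and that symbol is one of the 6. This gave 12 of 22690 probe sets, for 5 of the 6 genes, out of 12393 genes named by the array. Flt3l was represented only by 1 probe set that the annotation shares with Rpl13a, a ribosomal protein gene.

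Developing thymocytes depend on signals from the thymic stroma. Il7 acts through Il7r and the common gamma chain and keeps early thymocytes alive. Kitl, also called stem cell factor, acts through the receptor tyrosine kinase Kit on the earliest progenitors. Tslp binds a receptor made of Crlf2 and Il7r, and is known as an epithelial signal to dendritic cells as well as to lymphoid precursors. Flt3l supports early lymphoid progenitors and dendritic cells, Csf1 supports macrophages, and Il15 supports natural killer cells and memory T cells.

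RNA was measured on 12 Affymetrix arrays in ET cells, a murine line labelled as fetal cortical thymic epithelium. Cells in culture received 5 nM TCDD, a dioxin that activates the aryl hydrocarbon receptor (AhR), or 0.05% by volume of its solvent, 1,4-dioxane, and were harvested after 2, 4 or 6 h. There were 2 arrays for each treatment at each time, 6 groups in all, called biological duplicates by the submitters with no word on which step was repeated, so p-values cover only the spread between these arrays. The question is which genes AhR activation changes in these cells. The second TCDD array at 4 h names the solvent in its treatment field, and both solvent arrays at 6 h give 4 h in their description and protocol; titles set the groups. Levels are the deposited log2 values, on which a difference of 1 is a 2-fold change. Treatments and times are compared 1 probe set at a time, apart from marker sums and means over a gene's probe sets. Probe sets differ in how brightly they report a given amount of RNA. The background limits set different probe sets against each other, so those calls are rough.

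The treatment registered on the arrays. Averaged over the 3 times, Cyp1a1, a xenobiotic enzyme and AhR target, was higher by 5.83 ± 0.26 (SE) on the log2 scale (limma adjusted p = 1.4e-05). Its level was 9.3 to 11.1 on all 6 arrays titled TCDD, the second at 4 h included, and 4.0 to 5.5 on all 6 titled solvent. Tiparp and Nqo1, also known AhR targets, passed as well, with 3.25 ± 0.32 (adjusted p = 0.00313) for the Tiparp probe set 1426721_s_at and 1.22 ± 0.11 (adjusted p = 0.00227) for Nqo1. Clustering by overall level parted the arrays into a set of 7 (3 TCDD and 4 solvent) and the other 5 (3 TCDD and 2 solvent), a split that crosses treatment and time, so values within each set are given too. No batch is named in the labels. Markers matched the labelled cell type only in part. Of 10 cortical epithelial markers on the array 5 lay at or above the level filter used for testing, which 15844 of 22626 probe sets passed. Prss16, Ly75, Krt18, Epcam and Enpep lay below it. All 10 fibroblast and mesenchyme markers lay above it. The background limit of 5.61 was passed by only 2 of the 10 cortical markers, Ctsl and Cxcl12, and by 9 of the 10 mesenchyme markers. Of 5 medullary epithelial markers on the array 4 lay at or above the filter, Cldn4 lay below it, and only 1, Cldn3, passed 5.61. The line is called by its label here, and in such bulk RNA a change in the number of cells of a type cannot be told apart from a change in RNA per cell. Of 6 lymphoid markers on the array 3 lay at or above the filter, Ptprc, Cd3g and Rag1 lay below it, and the highest, Cd3e, had a mean of 5.56, just under the background limit of 5.61 given next. Their summed level was 6.83 to 7.18 on TCDD arrays and 6.82 to 7.20 on solvent arrays (log2). For 6 macrophage and dendritic cell markers it was 7.67 to 8.08 on TCDD arrays and 7.63 to 8.08 on solvent arrays, with 3 of the 6 at or above the filter, Cd14 above the background limit, and Adgre1, Itgam and Itgax below the filter.

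Csf1 and Kitl were expressed above background in ET cells, Tslp lay in between, and Il7 and Il15 were not above background. The deposited values carry no detection calls, so background was read from 55 probe sets of 37 genes restricted to tissues such as sperm, photoreceptors, liver and lens, or to blood cells. The blood cell genes include Cd3e, Cd3g and Cd79a of lymphocytes, and the limit was 5.61 with and without these 3. Their median level was 3.56 and their 95th percentile 5.61. The filter for testing was the 30th percentile of all probe sets, a level of 3.98. Of the 12 member probe sets 6 had a mean over the 12 arrays above both limits, namely all 4 of Csf1 and 2 of Kitl, whereas 43.3% of all probe sets reached 5.61. Of these, Kitl 1448117_at passed 5.61 only through TCDD arrays: its mean was 5.90 on TCDD arrays, of which 3 of 6 lay above the limit, and 5.53 on solvent arrays, of which 1 of 6 did. Tslp, with a mean of 4.96, and the Kitl probe set 1426152_a_at, with 4.28, lay above the filter but not above 5.61. Both Il7 probe sets (2.87 and 2.75), the Il15 probe set (3.02) and the Kitl probe set 1415854_at (3.50) lay below both limits and below the median of the tissue-restricted genes. A low level from a probe set that reports poorly cannot be told apart from a silent gene.

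**Figure D1:**
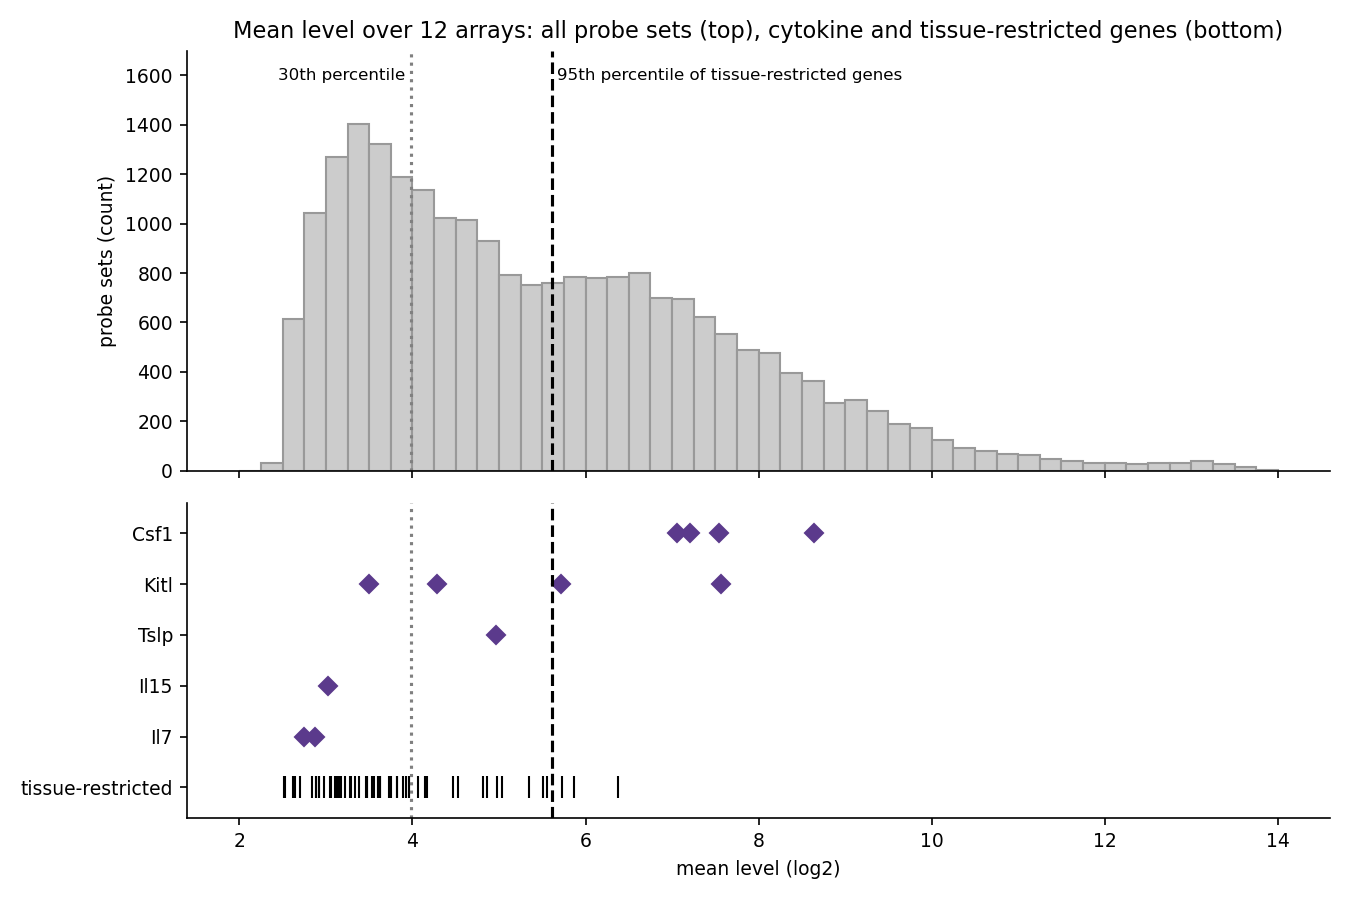
Mean log2 level over 12 arrays of each member probe set, set against all probe sets and against the limits at 3.98 (30th percentile of all probe sets) and 5.61 (95th percentile of tissue-restricted genes). All 4 Csf1 and 2 of the Kitl probe sets lie right of both limits, Tslp lies between them at 4.96, and Il7 and Il15 lie left of both.

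The filter left 8 of the 12 member probe sets for testing, 4 of Csf1, 3 of Kitl and 1 of Tslp. At 2 h 0 of the 8 passed the limma test (adjusted p under 0.05), where 0.0189% of all 15844 tested probe sets did. At 4 h 0 of 8 passed, against 0.0126% of all, and at 6 h 0 of 8, against 0.00631% of all. For the average of the 3 times 0 of 8 passed, against 0.0947% of all. At an unadjusted p under 0.05 the members numbered 3 at 2 h (1 higher and 2 lower with TCDD), 2 at 4 h (1 higher and 1 lower), 5 at 6 h (3 higher and 2 lower) and 3 for the average (1 higher and 2 lower). Among all tested probe sets it was reached by 1.49% at 2 h, 2.17% at 4 h and 2.15% at 6 h, and by 3.36% when averaged. The 8 members had a median log2 effect of -0.10, -0.17 and -0.08 at 2, 4 and 6 h and -0.11 averaged over times, beside 0.00, 0.00, -0.05 and 0.00 over all tested probe sets. In 3 of the 8, namely Tslp and the Csf1 probe sets 1448914_a_at and 1460220_a_at, the 6 TCDD arrays did not overlap the 6 solvent arrays, a pattern found in 0.29% of all tested probe sets. Tslp was the one higher with TCDD, as were 0.246% of all, and the pair of Csf1 probe sets was lower, as were 0.0442% of all.

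**Figure D2:**
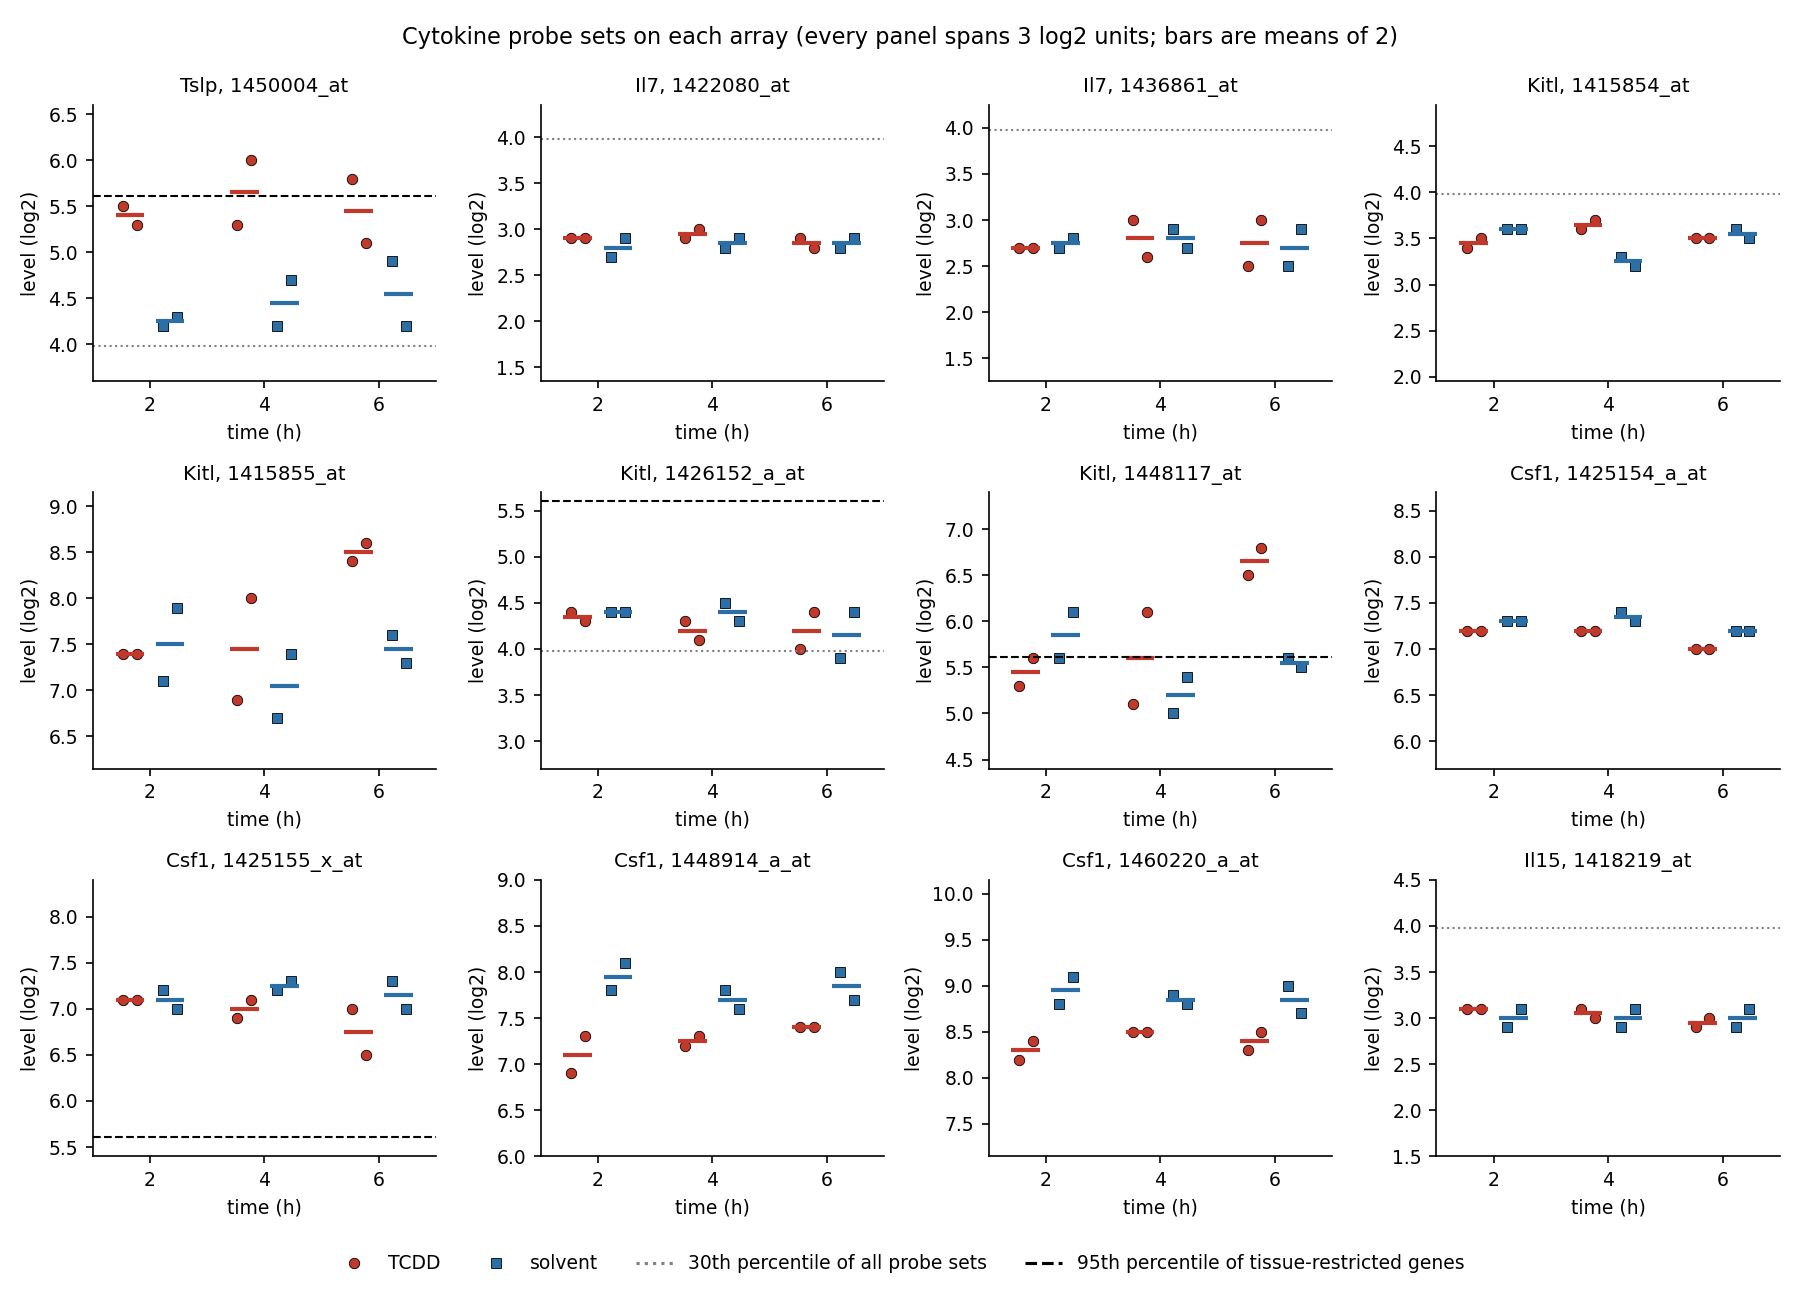
Log2 level on each of the 12 arrays for the member probe sets, by treatment and time, with TCDD left of solvent. Every TCDD array of Tslp (5.1 to 6.0) lies above every solvent array (4.2 to 4.9), and every TCDD array of Csf1 1460220_a_at (8.2 to 8.5) lies below every solvent array (8.7 to 9.1).

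Tslp was higher in cells with TCDD at each time, by 0.90 to 1.20 on the log2 scale, though it passed the test at no single time. Its probe set, 1450004_at, read 5.5 and 5.3 on the TCDD arrays at 2 h, against 4.2 and 4.3 on the solvent arrays. At 4 h it read 5.3 and 6.0 with TCDD, against 4.2 and 4.7 with solvent. At 6 h it read 5.8 and 5.1 with TCDD, against 4.9 and 4.2 with solvent. All 6 TCDD arrays were thus higher than all 6 solvent arrays, although the margin between the lowest TCDD array and the highest solvent array, both at 6 h, was narrow. In order of level, the groups ran TCDD at 4 h (5.65 ± 0.49), 6 h (5.45 ± 0.49) and 2 h (5.40 ± 0.14), then solvent at 6 h (4.55 ± 0.49), 4 h (4.45 ± 0.35) and 2 h (4.25 ± 0.07; SD, n = 2 each). Neighbours within a treatment differed by less than the larger SD of the pair, though solvent at 4 h and 2 h differed by more than the SD at 2 h.

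The Tslp difference was 1.15 ± 0.33 (SE) on the log2 scale at 2 h, 1.20 ± 0.33 at 4 h and 0.90 ± 0.33 at 6 h. None of these passed (limma adjusted p = 1, 0.973 and 1). The 6 h value leans on single arrays: it was 0.55 without the first TCDD array or without the second solvent array, and 1.25 without the second TCDD array or without the first solvent array. Averaged over the times the Tslp difference was 1.08 ± 0.19, which also did not pass (limma adjusted p = 0.126). First and second arrays matched only weakly across treatments at 4 h (r = 0.159 across tested probe sets). When they were paired by a replicate block within each time, the averaged Tslp difference passed (SE 0.09, limma adjusted p = 0.0121), as did 0.101% of all tested probe sets in that fit. With the array set as a block it passed too (1.16 ± 0.14, limma adjusted p = 0.0127), as did 0.29% of all, but the sets were drawn from these same arrays and that p can be too small. An exact permutation test of the average over all assignments within times gave a two-sided p of 0.00926, the smallest it can give, unadjusted for the choice of gene. Within the larger array set the difference was 1.30 at 2 h, 1.55 at 4 h and 0.90 at 6 h, and within the smaller set it was 1.00 at 2 h and 0.90 at 6 h. Only 2 of the 6 TCDD arrays and 0 of the 6 solvent arrays reached 5.61, and array differences are compressed near background, so no fold is given.

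**Figure D3:**
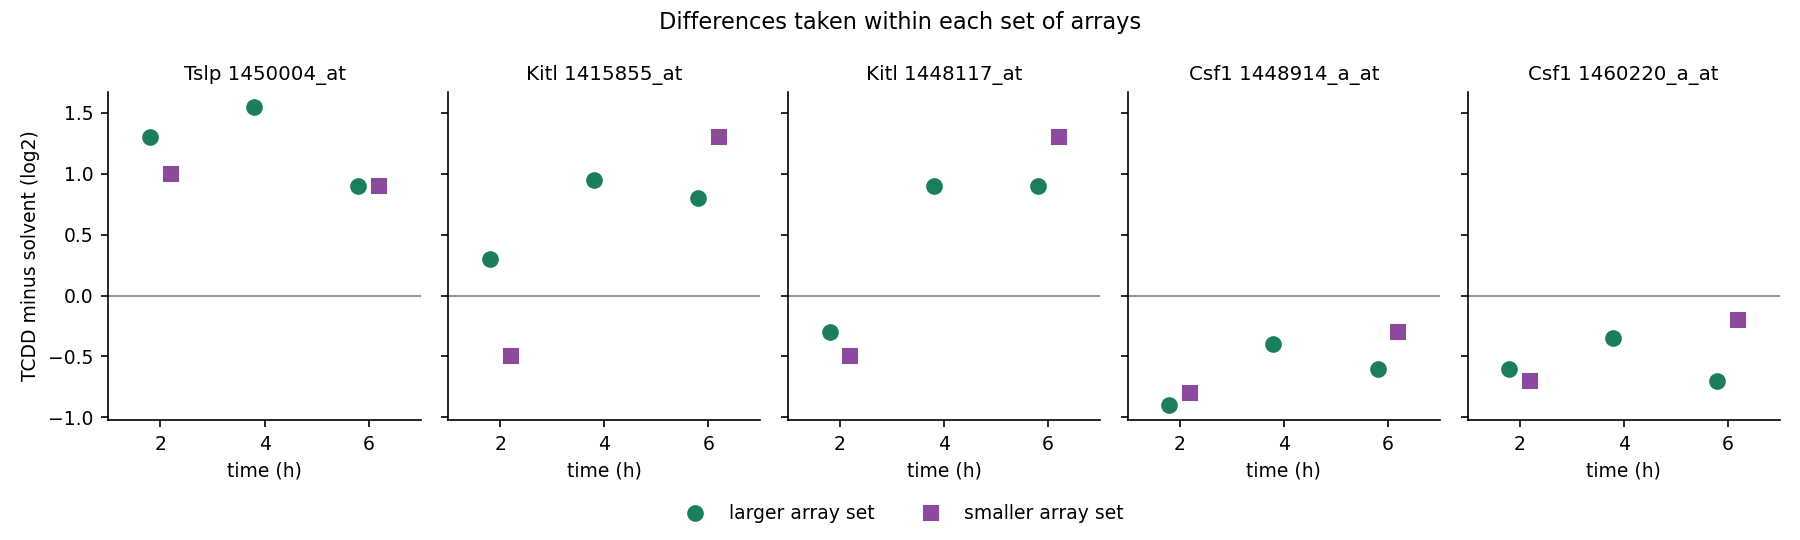
Difference between TCDD and solvent (log2) at each time within each of the array sets, for Tslp, Csf1 and Kitl probe sets; each point rests on 1 TCDD array and 1 or 2 solvent arrays. Tslp lies between 0.90 and 1.55 in both sets, while Kitl 1415855_at lies at 0.30 and -0.50 at 2 h and at 0.80 and 1.30 at 6 h.

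Csf1, the growth factor of macrophages, was lower with TCDD at 2 of its 4 probe sets. The brighter, 1460220_a_at, read 8.2 and 8.4 at 2 h, 8.5 and 8.5 at 4 h, and 8.3 and 8.5 at 6 h with TCDD. The solvent arrays read 8.8 and 9.1 at 2 h, 8.9 and 8.8 at 4 h, and 9.0 and 8.7 at 6 h. All TCDD arrays were below all solvent arrays. The other, 1448914_a_at, read 6.9 and 7.3, 7.2 and 7.3, and 7.4 and 7.4 with TCDD at 2, 4 and 6 h, against 7.8 and 8.1, 7.8 and 7.6, and 8.0 and 7.7 with solvent. Again no TCDD array reached any solvent array.

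Averaged over the times, 1448914_a_at was lower by 0.58 ± 0.11 (SE) on the log2 scale, or 1.5-fold, and 1460220_a_at by 0.48 ± 0.10, or 1.4-fold. Neither passed (limma adjusted p = 0.188 and 0.295, or 0.0987 and 0.131 when blocked by array set). For both the largest difference was at 2 h, -0.85 ± 0.20 for 1448914_a_at (limma adjusted p = 0.834) and -0.65 ± 0.18 for 1460220_a_at. At 4 and 6 h the differences were -0.45 and -0.45 for 1448914_a_at, and -0.35 and -0.45 for 1460220_a_at, and the change of the effect over time did not pass. Within the array sets 1460220_a_at gave -0.60, -0.35 and -0.70 in the larger set at 2, 4 and 6 h, and -0.70 and -0.20 in the smaller set at 2 and 6 h. Both probe sets are annotated to 1 shared transcript record and moved together over the 12 arrays (Pearson r = 0.94), so they are not independent readings.

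The other pair of Csf1 probe sets, which share another record, differed less. Csf1 1425154_a_at lay at 7.0 to 7.2 on TCDD arrays and 7.2 to 7.4 on solvent arrays, with an average difference of -0.15 ± 0.08 (SE). Csf1 1425155_x_at lay at 6.5 to 7.1 on TCDD arrays and 7.0 to 7.3 on solvent arrays, with -0.22 ± 0.12, or -0.30 without the first and -0.13 without the second TCDD array at 6 h. Their ranges over all times overlapped or touched between treatments, and neither passed (limma adjusted p = 1 for both). At each single time 1425154_a_at was lower on both TCDD arrays than on both solvent arrays. So were 6.68%, 11.1% and 9.66% of all tested probe sets at 2, 4 and 6 h. Its differences at these times were small, -0.10, -0.15 and -0.20, from values given to 1 decimal. All 4 probe sets thus gave a negative average, and the mean of a gene's probe sets gave -0.36 ± 0.08 for Csf1 (limma adjusted p = 0.345). Exact permutation p was 0.00926 for 1448914_a_at, 1460220_a_at and 1425154_a_at and 0.111 for 1425155_x_at. The value 0.00926 is the smallest that test can give and is unadjusted for the choice of gene. The share of all probe sets that reach it is not given here.

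Kitl, the ligand of Kit, was about 2-fold higher with TCDD at 6 h and not at 2 h at 1415855_at, its probe set above background in both treatments. The probe set 1448117_at ran the same way, but its mean over solvent arrays lay below the background limit. Kitl 1415855_at read 7.4 and 7.4 with TCDD at 2 h, against 7.1 and 7.9 with solvent. At 4 h it read 6.9 and 8.0 with TCDD, against 6.7 and 7.4 with solvent. At 6 h it read 8.4 and 8.6 with TCDD, against 7.6 and 7.3 with solvent. The groups overlapped at 2 and 4 h. At 6 h both TCDD arrays lay above both solvent arrays, as they did in 9.69% of all tested probe sets. The second probe set, 1448117_at, read 5.3 and 5.6 at 2 h, 5.1 and 6.1 at 4 h and 6.5 and 6.8 at 6 h with TCDD. With solvent it read 5.6 and 6.1 at 2 h, 5.0 and 5.4 at 4 h, and 5.6 and 5.5 at 6 h, so TCDD arrays were not above the solvent arrays at 2 h but were at 6 h.

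At 6 h the difference was 1.05 ± 0.38 (SE) on the log2 scale for 1415855_at, or 2.07-fold. It was 1.10 ± 0.32 for 1448117_at, for which no fold is given because both solvent arrays at 6 h lay below 5.61. Neither passed (limma adjusted p = 1 for both). At 2 h the differences were -0.10 ± 0.38 and -0.40 ± 0.32, and at 4 h 0.40 ± 0.38 and 0.40 ± 0.32. The 2 h value of 1415855_at was -0.50 without the first solvent array and 0.30 without the second. The 4 h values rest on the second TCDD array, whose treatment field names the solvent while its Cyp1a1 level lay in the range of the other TCDD arrays: without it they were -0.15 for 1415855_at and -0.10 for 1448117_at, and without the first TCDD array 0.95 and 0.90. The change of the TCDD effect over time, was tested by a moderated F-test, which neither passed (limma adjusted p = 1 for both). In that test 0 of the 8 members passed, as did 0% of all, and 1 of the 8, Kitl 1448117_at, reached an unadjusted p under 0.05, against 0.663% of all. The average over the times was 0.45 ± 0.22 for 1415855_at and 0.37 ± 0.18 for 1448117_at (limma adjusted p = 1 for both), or 0.27 and 0.20 without the second TCDD array at 4 h. Both probe sets share a transcript record and followed each other over the 12 arrays (Pearson r = 0.96). Within the array sets the 6 h difference of 1415855_at was 0.80 in the larger and 1.30 in the smaller set, and its 2 h difference was 0.30 and -0.50.

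The remaining Kitl probe sets stayed near background. Kitl 1426152_a_at, annotated to another transcript record, lay at 4.0 to 4.4 on TCDD arrays and 3.9 to 4.5 on solvent arrays, with an average difference of -0.07 ± 0.12 (SE), and its values ran against those of 1415855_at over the 12 arrays (r = -0.41). Kitl 1415854_at, of the same record as the brighter pair, lay at 3.4 to 3.7 on TCDD arrays and 3.2 to 3.6 on solvent arrays and was below the filter.

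**Figure D4:**
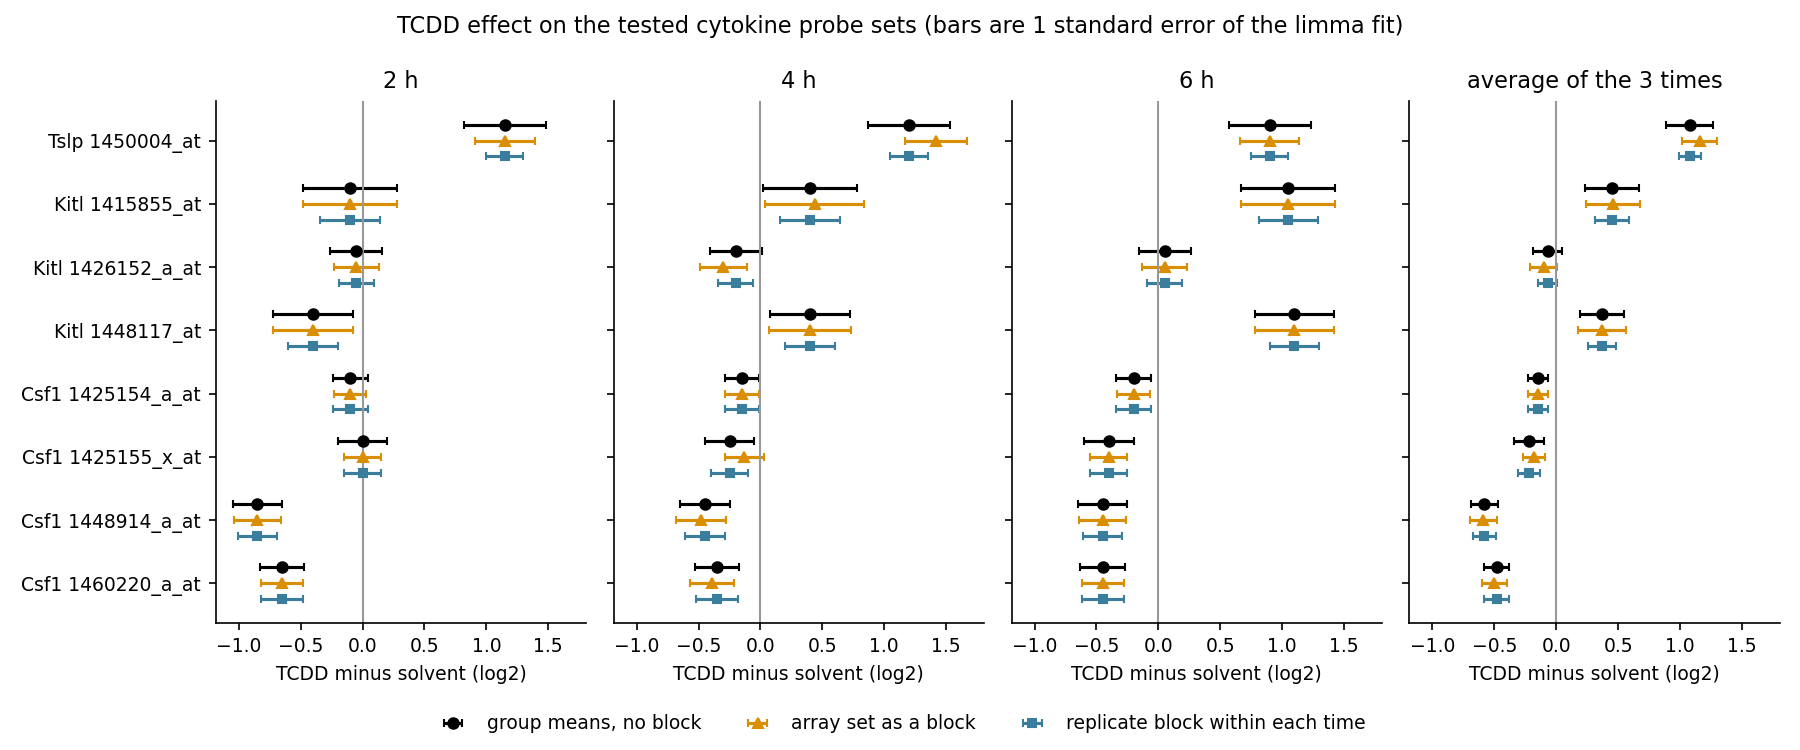
Difference between TCDD and solvent (log2) with 1 standard error for the 8 tested member probe sets at 2, 4 and 6 h and for their average, without a block, blocked by array set and blocked by replicate number. Tslp lies near 1 throughout (0.90 to 1.20 without a block), Csf1 1448914_a_at lies below 0 throughout, and Kitl 1448117_at lies at -0.40 at 2 h and 1.10 at 6 h.

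The sequence before the transcription start was available for Kitl and Csf1, the members above background. The 250 bases before the start are shown because AhR with its partner Arnt recognises the core GCGTG, and that run, read on either strand, is in capitals. They come from RefSeq, build GRCm38.p6, for Kitl at chr10:100015571-100015820 on the plus strand and for Csf1 at chr3:107760470-107760719 on the minus strand.
Kitl: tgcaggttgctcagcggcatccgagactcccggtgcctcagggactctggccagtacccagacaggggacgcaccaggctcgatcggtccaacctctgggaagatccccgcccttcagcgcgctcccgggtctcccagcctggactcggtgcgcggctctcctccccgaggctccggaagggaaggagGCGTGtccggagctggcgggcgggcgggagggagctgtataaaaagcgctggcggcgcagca
Csf1: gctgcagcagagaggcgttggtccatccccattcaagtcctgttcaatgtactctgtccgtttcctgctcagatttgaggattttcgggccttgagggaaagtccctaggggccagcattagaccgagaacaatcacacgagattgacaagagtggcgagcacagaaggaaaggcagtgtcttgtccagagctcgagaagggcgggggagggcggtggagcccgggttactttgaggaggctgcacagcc
Kitl had 1 match, which begins 62 bases before the start, and Csf1 had 0. A match was found in 28.2% of 32851 promoters of the same length, so 1 match is common. Flt3l also had 1 match, 65 bases before its start. Tslp, Il7 and Il15 were not analysed here.

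Il7, the survival factor of early thymocytes, showed no level above background with either treatment. Il7 1422080_at read 2.8 to 3.0 on TCDD arrays and 2.7 to 2.9 on solvent arrays, and Il7 1436861_at read 2.5 to 3.0 on TCDD arrays and 2.5 to 2.9 on solvent arrays. Il15 1418219_at read 2.9 to 3.1 on TCDD arrays and 2.9 to 3.1 on solvent arrays. The ranges of TCDD and solvent arrays overlapped at all 3 probe sets. All lay below the filter, and in a fit without the filter the average differences were 0.07 ± 0.08 and 0.00 ± 0.12 (SE) for Il7 and 0.03 ± 0.08 for Il15 (limma adjusted p = 0.997, 1 and 0.997). The probe set shared by Flt3l and Rpl13a read 3.4 to 3.8 on TCDD arrays and 3.4 to 3.7 on solvent arrays and says nothing on Flt3l by itself.

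Over both treatments, no member passed for time. At 4 h against 2 h 0 of the 8 passed the limma test, as did 0% of all, and 0 of 8 reached an unadjusted p under 0.05, against 2.84% of all. At 6 h against 2 h 0 of 8 passed, as did 0% of all, and 0 of 8 reached an unadjusted p under 0.05, against 11.1% of all. The Kitl probe sets came nearest at 6 h, with 0.52 ± 0.27 for 1415855_at (adjusted p = 0.472) and 0.45 ± 0.22 (SE) for 1448117_at (limma adjusted p = 0.464).

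No gene that receives, releases or relays these cytokines passed when each of the 6 groups had its own mean over all 12 arrays and no block was used. Among 8 receptor genes, 7 had a probe set and 6 lay above the filter, 0 passed and 0 reached an unadjusted p under 0.05 at any time or on average, and the median average effect was -0.02. Crlf2, the Tslp receptor chain, had the largest average difference, -0.17 ± 0.12 (SE, limma adjusted p = 1), and Il7r, the other chain, lay below the filter at 3.09 and 2.81. All 9 genes for proteases that can shed membrane-bound factors, and their inhibitors, were tested, and 0 passed or reached an unadjusted p under 0.05 (median -0.07). Of these Mmp14, a membrane-anchored matrix protease, had the largest difference, -0.50 ± 0.24 (SE) at 1416572_at and -0.42 ± 0.21 at 1448383_at. Of 29 other stromal cytokines and growth factors 27 were on the array and 18 tested, 0 passed, 3 had an average above 0 and the median was -0.11. On average 2 of these genes, Igf1 and Tgfb2, had at least 1 probe set at an unadjusted p under 0.05, both lower. That is a count of genes, whereas the share of 3.36% is of all single tested probe sets. For Igf1 only 1452014_a_at reached it (limma unadjusted p = 0.0145), and 1419519_at and 1437401_at did not (0.291 and 0.922). Il6, an inflammatory cytokine, had the largest average difference, -0.83 ± 0.47 (limma adjusted p = 1). Its lowest, median and highest levels were 4.7, 5.75 and 7.0 on TCDD arrays, against 6.0, 6.15 and 8.2 on solvent arrays. When blocked by array set its difference was -1.08 ± 0.18, which did not pass either (limma adjusted p = 0.0623).

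Of 12 JAK, STAT and SOCS genes, which relay or damp signals of these receptors, 11 were on the array and tested, 0 passed, and the median average effect was -0.12. On average 2 of these genes, Jak1 and Socs3, had at least 1 probe set at an unadjusted p under 0.05, both higher. Again this counts genes, whereas the share of 3.36% is of all single tested probe sets. Jak1, a kinase shared by the Il7 and Il15 receptors, had the largest average difference, 1.03 ± 0.21 (SE, limma adjusted p = 0.21) at 1433805_at and 0.97 ± 0.20 at 1433803_at. Without the first TCDD array at 4 h both probe sets passed (limma adjusted p = 0.00335 and 0.0153). Its level at 1433805_at was 8.3 to 10.3 on TCDD arrays (median 9.35), against 7.9 to 8.7 on solvent arrays (median 8.35). Socs3, a feedback inhibitor of cytokine receptors, had the largest difference of the list at 2 h. At 1456212_x_at it was 1.90 ± 0.25 at 2 h, or 3.73-fold, 0.65 ± 0.25 at 4 h and 0.25 ± 0.25 at 6 h. The 2 h value did not pass (limma adjusted p = 0.0602). It did when blocked by array set (adjusted p = 0.0424) or with the 4 h and 6 h solvent arrays as 1 group (adjusted p = 0.0246). The other Socs3 probe sets gave 1.95 ± 0.30 (1455899_x_at) and 1.35 ± 0.32 (1416576_at) at 2 h. Neither passed in the fit of all 12 arrays without a block (limma adjusted p = 0.141 and 0.89). The average at 1456212_x_at was 0.93 ± 0.14, which did not pass without a block (limma adjusted p = 0.0715). It did when blocked by array set (adjusted p = 0.0418) or with the 4 h and 6 h solvent arrays as 1 group (adjusted p = 0.0275).

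Over the 12 arrays the genes whose levels ran most like a member were found by Pearson correlation, which also follows the array sets and the treatment itself. Most like Tslp were Cyp1b1, a xenobiotic cytochrome P450 (r = 0.936), Cpox, an enzyme of haem synthesis (0.933), Slc1a4, a neutral amino acid transporter (0.933), Tcf21, a mesenchymal transcription factor (0.923), and Prnp, the prion protein (0.922). Cyp1b1 averaged 9.47 on TCDD arrays and 7.77 on solvent arrays. Most like Kitl 1415855_at were Smc5 (0.978), Rps6ka3 (0.960) and Hmgn5 (0.960), and most like Csf1 1460220_a_at were Id3 (0.887), Edn1 (0.835) and Dnmt3a (0.828).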

How the data were processed

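RNA of 12 samples was measured on 1 array each, and depth does not apply to arrays, whose number limited the precision. The deposited log2 values were made by the authors with RMA, which the submitters' processing notes name without a version; the values have 1 decimal and run from 2.2 to 14.1, and every array has a median of 5.1, which hides any shift common to all genes. All 12 columns were used and 0 left out. The array has 22690 probe sets, of which 64 are controls and were not used. In the platform annotation 20380 of the remaining 22626 carry 1 symbol, 691 carry several and 1555 carry none. Probe sets with a mean at or above the 30th percentile (3.98) were tested, 15844 in all.

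A mean for each of the 6 groups was estimated by limma 3.58.1 (R 4.3.3) over all 12 arrays (6 residual degrees of freedom), two-sided, with Benjamini-Hochberg adjustment over all tested probe sets and a threshold of 0.05. The script was tested on simulated data. Replicate numbers were checked for pairing: the first minus second array difference of TCDD correlated with that of solvent, across tested probe sets, at 0.365, 0.159 and 0.705 at 2, 4 and 6 h. A fit with the number as a block within each time is given where it changes a call. The pairing was weak at 4 h, where both solvent arrays lay in the larger array set and the TCDD arrays were split between the sets. Array sets came from complete-linkage clustering into 4 clusters, with the largest as 1 set and all other arrays as the second. The pairing comes from the arrays' numbers and values, not from a stated batch. The alternatives included other filters, other variance settings, blocks, pooled solvent arrays and leaving out each array. Members and lists were chosen with earlier results of these data known. Named genes are all probe sets of the 6 members, for each list any gene that passes a test and otherwise the one with the largest average effect, Cyp1a1, Tiparp and Nqo1 for the treatment, and for each of Tslp, Kitl and Csf1 the genes with the highest correlation. Igf1 and Tgfb2 were named after their values were seen, and Socs3 since it passed when blocked by array set. Figures were drawn with matplotlib 3.10.9.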

Additional observations from a re-analysis of the deposited data

Results flagged for a closer look

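At the Kitl probe sets 1415855_at and 1448117_at the TCDD effect had opposite signs at 2 h and at 6 h. At 1415855_at the effect at 6 h minus that at 2 h was 1.15 on the log2 scale, and at 1448117_at it was 1.50. The moderated F-test of the change over the 3 times passed for neither (limma adjusted p = 1 for both), although 1448117_at reached an unadjusted p under 0.05. At 1415855_at the 2 h arrays of TCDD (7.4 and 7.4) lay between the solvent arrays (7.1 and 7.9), so the sign at 2 h is not settled there. At 1448117_at the mean over solvent arrays, 5.53, lay below the background limit of 5.61. Groups of 2 arrays were too small for a check of single outlying arrays.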

How the results depend on the processing

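For the average over 2, 4 and 6 h the number of member probe sets past the test was 0 without a block and 1, which was Tslp, with the replicate block within each time (1.08 ± 0.09 SE, limma adjusted p = 0.0121), with the array set as a block (1.16, adjusted p = 0.0127) and with the solvent arrays of all times as 1 group (1.08, adjusted p = 0.04). The block changed no other member call. Over its 22 alternatives the Tslp average was 0.97 to 1.20, with an adjusted p of 0.0121 to 0.603, and leaving out any 1 array gave a count of 0 throughout. With 1 replicate block over all times Tslp did not pass (adjusted p = 0.205). At single times, for the change over time and for the time comparisons the count stayed at 0 in every alternative run. Of 1084 single effects under other settings 1081 kept direction or had no call either way, 3 newly passed and 0 reversed a call; 42 changed sign without a call. Members above background numbered 6, and 8 against the median of the tissue-restricted genes or 5 on solvent arrays only, where Kitl 1448117_at had a mean of 5.53. The number was 6 also without the lymphocyte genes of the tissue-restricted list, an alternative chosen after seeing the data. Over all probe sets the calls at 2, 4 and 6 h and for the average were 3, 2, 1 and 15 without a block, 1, 1, 1 and 16 with the replicate block, and 10, 7, 8 and 46 with the array set as a block. With the filter at the 50th percentile Tslp and Kitl 1426152_a_at were not tested. Effects at 4 h were not run without the 4 h time, nor the time comparisons with all solvent arrays as 1 group. With 2 arrays per group a difference that did not pass is not shown to be absent.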

Other observations

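Among the other stromal growth factors, Tgfb2, a growth factor that restrains the proliferation of many cell types, had 3 tested probe sets, singled out after their values were seen. Its average differences between TCDD and solvent were -0.45 ± 0.14, -0.35 ± 0.15 and -0.40 ± 0.09 (SE) on the log2 scale at 1423250_a_at, 1450922_a_at and 1450923_at, and none passed (limma adjusted p = 0.929, 1 and 0.43). Their mean levels of 4.44, 4.19 and 4.37 lay above the filter and below 5.61.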
